A study of Mus musculus with 9 samples.

Results

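The authors' list of H3K27me3 regions in Th1 cells held 3949 regions, all of which were used, out of 14844 regions and peaks in the study's 3 chromatin lists. The other lists held 7669 regions of H3K4me1 and 3226 peaks of T-bet. The H3K27me3 list was made from 1 wild type library and 1 Tbx21-/- library and is a single list for both genotypes. It does not state for any region in which genotype the mark was higher, and no test between genotypes is possible with 1 library each. The values per region are the authors' own.

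Both genotypes came from C57BL/6 mice and both carried the T-bet-ZsGreen reporter, in which ZsGreen fluorescence follows the expression of T-bet. The wild type cells had intact Tbx21, the gene for T-bet, and the Tbx21-/- cells carried the knockout in the animal and not only in culture. The labels do not give which part of Tbx21 the knockout removes. Naive CD4+ T cells negative for ZsGreen were cultured for 3 to 4 days with irradiated, T cell-depleted splenocytes, anti-CD3, anti-CD28, human IL-2, IL-12 and anti-IL-4, then kept in IL-2. Cells positive for ZsGreen were sorted and expanded for 3 more days under the same Th1 conditions, so the reporter chose the cells of both genotypes. Chromatin was cut with micrococcal nuclease into mostly single nucleosomes and precipitated with an antibody to H3K27me3. The ages of the mice, and whether animals were pooled, are not given in the labels. By the authors' deposited table, wild type and Tbx21-/- cells had 1011 and 19.5 FPKM of the Th1 cytokine Ifng, and 271 and 124 FPKM of Tbx21 itself, so Tbx21 transcript was still counted in the knockout. FPKM is a fragment count scaled to transcript length and library size, here 1 value per genotype that combines duplicate libraries. Of 5 Th1 markers, 4 were on the authors' lists of changed genes. Of 4 B cell markers 1 was listed in the authors' deposited table, Cd79a, with 0.722 and 5.36 FPKM in the same order, and none of the 4 myeloid and 3 erythroid markers was listed. Of 3 markers of NK and CD8 T cells 1 was listed there, Cd8a, with 39.6 and 19.1 FPKM, so it was higher in wild type cells, the opposite of Cd79a. Longer marker lists gave more: of 29 myeloid and dendritic genes, 5 were listed as higher in Tbx21-/- cells and 0 as lower. Of 16 B cell genes 2 were listed as higher there and 1 as lower, and of 12 CD8 and NK genes 0 and 5. The part of other cells in the values was not tested.

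H3K27me3, trimethylation of lysine 27 of histone H3, is placed by Polycomb repressive complex 2, with Ezh1 or Ezh2 as the catalytic subunit, and is bound by Polycomb repressive complex 1. The mark is known for silent developmental genes, often at promoters rich in CpG, where it can spread over many nucleosomes. In helper T cells it is known at genes of the lineages that a cell did not take, and T-bet is the factor that directs the Th1 lineage. H3K4me1 is the contrasting mark, found at enhancers and around active promoters.

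Windows at transcription starts of 4 genes show the range of CpG content among the T cell genes closest to the regions, and they were chosen after their values were seen. Ifngr2 encodes the second chain of the interferon gamma receptor, Tcf7 encodes TCF1, a factor of naive and memory T cells, Ccr6 encodes the receptor of CCL20 on Th17 cells, and Il17a encodes the leading Th17 cytokine. Each sequence runs from 250 bases before to 50 bases after a transcription start in RefSeq, build GRCm38.p6, with every CG in capitals. They lie at chr16:91546809-91547108 on the plus strand, chr11:52282965-52283264 on the minus strand, chr17:8235793-8236092 on the plus strand and chr1:20730655-20730954 on the plus strand. For Tcf7 and Ccr6 it is the first of 2 listed starts.
Ifngr2 promoter: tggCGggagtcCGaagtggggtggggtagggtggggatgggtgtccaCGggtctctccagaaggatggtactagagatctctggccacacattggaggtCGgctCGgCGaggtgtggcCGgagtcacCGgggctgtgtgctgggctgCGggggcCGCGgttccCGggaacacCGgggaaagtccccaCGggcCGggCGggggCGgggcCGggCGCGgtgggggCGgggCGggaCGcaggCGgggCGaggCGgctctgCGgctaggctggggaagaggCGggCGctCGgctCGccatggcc
Tcf7 promoter: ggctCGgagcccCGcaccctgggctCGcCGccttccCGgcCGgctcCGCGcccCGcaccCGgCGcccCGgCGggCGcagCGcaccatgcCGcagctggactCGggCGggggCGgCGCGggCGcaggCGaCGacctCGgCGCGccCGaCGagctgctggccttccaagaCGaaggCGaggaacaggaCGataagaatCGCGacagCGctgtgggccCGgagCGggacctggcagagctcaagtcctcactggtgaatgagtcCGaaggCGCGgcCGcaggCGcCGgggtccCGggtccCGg
Ccr6 promoter: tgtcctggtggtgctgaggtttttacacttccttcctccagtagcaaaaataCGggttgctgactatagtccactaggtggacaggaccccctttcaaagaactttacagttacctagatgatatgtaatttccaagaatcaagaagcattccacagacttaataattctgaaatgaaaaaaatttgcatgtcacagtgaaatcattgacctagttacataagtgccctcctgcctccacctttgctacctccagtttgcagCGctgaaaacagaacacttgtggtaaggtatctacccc
Il17a promoter: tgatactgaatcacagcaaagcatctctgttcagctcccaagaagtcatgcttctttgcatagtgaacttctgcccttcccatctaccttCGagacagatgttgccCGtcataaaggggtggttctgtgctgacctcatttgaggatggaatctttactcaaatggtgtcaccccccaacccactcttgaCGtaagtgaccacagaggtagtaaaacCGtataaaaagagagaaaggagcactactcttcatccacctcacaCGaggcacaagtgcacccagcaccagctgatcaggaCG
The promoter of Ifngr2 held 31 CpG in 300 bases with 74.3% G or C, and the window of Tcf7 held 45 CpG with 76.3%. The Tcf7 window includes an ATG followed by an open reading frame to its end, so much of it can be coding sequence. Its count is therefore not read as that of a promoter. The promoter of Ccr6 held 2 CpG with 42.3% G or C, and that of Il17a held 6 with 48.3%. Windows rich and poor in CpG were both among these 4, which were picked after their values were seen. They do not give how common each kind is among the genes closest to H3K27me3 regions. The regions are given in build mm9, so where they lie relative to these starts was not analysed here. A comparison of CpG content and motifs over all genes was void, because 77.4% of the genes with a region had a promoter entry, fewer than 80%.

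MicroRNA genes were the closest gene of 60 regions, at 47 genes, and the mature sequences of 4 that are known in T cells are shown here with the seed, bases 2 to 8, in capitals. They were chosen after their values were seen and come from RefSeq, build GRCm38.p6, which held mature sequences for 41 of the 47 genes.
mmu-miR-146a-5p: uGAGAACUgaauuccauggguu
mmu-miR-181a-5p: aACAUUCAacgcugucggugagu
mmu-miR-148a-3p: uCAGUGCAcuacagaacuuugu
mmu-miR-29a-3p: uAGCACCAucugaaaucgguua
miR-146a restrains NF-kB signalling, and its gene, listed as Mir146, had 3 regions of 12 to 16 tags between chr11:43150497 and 43210595. A tag is a sequencing read counted by the authors' peak caller. miR-181a tunes the strength of T cell receptor signalling and has the seed ACAUUCA. It is made from 2 genes, and Mir181a-1 had 2 regions of 11 to 13 tags while Mir181a-2 had 1 region of 17 tags. Mir148a had 1 region of 48 tags, and Mir29a, whose product targets Tbx21 and Ifng transcripts, had 1 of 19 tags. Another seed shared by 2 of the microRNA genes was AAUGCCC, of miR-365-3p, with 1 region at Mir365-1 and 1 at Mir365-2. Over all 60 microRNA regions the median was 20 tags, and 35 were at or above the list's median of 18, so the small regions at Mir146 and the miR-181a genes do not stand for the class.

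The H3K27me3 regions were short and modest in tags. Length ran from 178 to 6215 bp with a median of 509 bp and quartiles of 407 and 710 bp, and 3542 regions, 89.7%, were under 1000 bp. In all they covered 2440477 bp. The tag count ran from 11 to 304 with a median of 18 and quartiles of 14 and 27, and 39 regions, 0.988%, had 100 tags or more. The fold enrichment given by the peak caller ran from 2.84 to 17.2 with a median of 7.22. H3K4me1 regions had medians of 688 bp and 27 tags, and T-bet peaks of 349 bp and 9 tags, so the H3K27me3 regions lay between the other lists in both values. The lists come from different libraries whose depth is not in the files, so these tag counts are not on a common scale.

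Longer regions had more tags and lower fold enrichment. Over the 3949 regions the correlation of length with tags on a log2 scale was r = 0.948 (Spearman's rho = 0.933), a description in which both values come from the same called region. The correlation of length with fold enrichment was r = -0.65 (rho = -0.61). Among the shortest 988 regions the median was 13 tags with a fold of 8.47, and among the longest 987 it was 37 tags with a fold of 5.31. Regions with the fewest tags therefore carried the higher fold values, and a ranking by fold picks other genes than a ranking by tags.

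**Figure D1:**
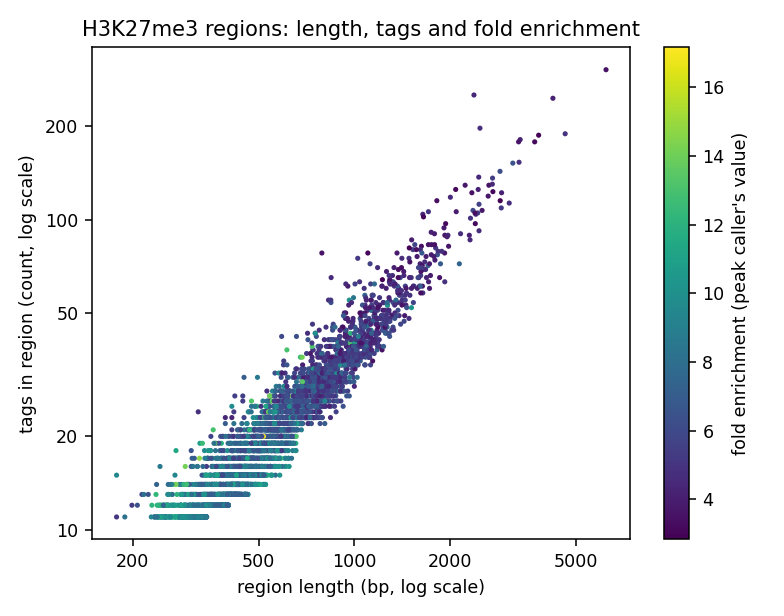
Each point is 1 of the 3949 H3K27me3 regions, with its length in bp on the x axis and its tag count on the y axis, both on log scales, and the peak caller's fold enrichment as colour. Tags follow length from 11 tags up to the region of 6215 bp with 304 tags, and the high fold values lie at the short end.

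The 10 regions with the highest tag counts had 9 different closest genes. The region with the highest count was also the longest, at chr7:151622476-151628690 with Cttn as the closest gene, which encodes the actin-binding protein cortactin, with 304 tags and a fold of 3.49. G530011O06Rik, a long noncoding RNA gene on the X chromosome, had the regions with 252 and 197 tags. Both overlapped an H3K4me1 region, as 1.29% of the list did. The region with 252 tags was the densest of the list, with 106 tags per kb where the median was 36.4. Vmn1r2, a vomeronasal receptor gene, had a region of 4227 bp with 246 tags near the start of chromosome 4, at chr4:3007569-3011795, which overlapped 2 T-bet peaks with folds of 1.21 and 1.44. The other 6 of the 10 highest were closest to B930092H01Rik with 189 tags, the nuclear factor I gene Nfix with 187, the DNA repair gene Smug1 with 181, the endothelial factor Sox18 with 178, the muscle gene Ky with 178 and the forkhead factor Foxl1 with 153. Of these 9 closest genes, Nfix, Sox18 and Foxl1 encode transcription factors that act in development outside T cells, and the others are of other kinds. The share of such factors over the whole list was not counted. By fold enrichment the first region was at Myo16, at chr8:10190245-10190761, with a fold of 17.2 and 20 tags. The next were closest to 3830408C21Rik, Rtn4rl2, 4930447C04Rik, Cdca7, Dab2, Rod1, Rabep1, Il1r1 and Ssr3, with folds of 15.4 to 14.1. No gene stood among the first 10 by both values.

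H3K27me3 regions lay mostly alone. With regions no more than 10 kb apart joined into a cluster, 3175 regions, 80.4%, stood alone and 774, 19.6%, lay in 303 clusters. Of the clusters, 221 held 2 regions, 50 held 3 and 16 held 5 or more. The median gap between neighbours on a chromosome was 191 kb, and 101 of 3929 gaps, 2.57%, were under 1 kb. Clustered regions were longer, with a median of 625 bp against 485 bp for lone regions, and had more tags, with a median of 24 against 17. In clusters of 5 or more the medians were 746 bp and 29 tags.

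The largest clusters joined short regions into long stretches. The first held 16 regions over 82.5 kb at chr2:72160829-72243373, with B230120H23Rik, the gene of the stress kinase ZAK, and Cdca7, a gene of the cell cycle, as closest genes, and its regions covered 12.8% of the stretch. The next held 12 regions over 42.2 kb at chr16:91513555-91555756, at the interferon receptor genes Ifnar1 and Ifngr2, with 448 tags and 23.7% covered. A cluster at Ampd3, an AMP deaminase, and Rnf141 on chromosome 7 held 9 regions over 33.9 kb. A cluster of 8 regions lay at 4933403F05Rik, now named Fam210a, on chromosome 18. The densest of the clusters with 5 or more regions was at Cdc42ep4, a gene of an effector of the GTPase CDC42, where 7 regions covered 58.9% of 16.1 kb.

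Regions of a gene could be spread wider than a cluster. Between Gm5122 and B930092H01Rik on chromosome 9, a place chosen after its values were seen, 21 regions lay over 347 kb at chr9:60775536-61122321 with a median of 1614 bp and 73 tags. The middle one of these regions was longer than the upper quartile of the whole list, 710 bp, and together they covered 10.6% of the stretch. B230120H23Rik and Cdca7 together had 25 regions over 295 kb.

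Chromosome 2 held the highest number of regions, 369 or 9.34%, followed by chromosome 11 with 290, chromosome 1 with 262 and chromosome 4 with 252. Set against the number of coding genes, the spread over autosomes was narrower: the median autosome had 20.4 regions per 100 coding genes, with the lowest value of 11.2 on chromosome 7 and the highest of 25.9 on chromosome 12. The X chromosome stood apart with 24 regions, 0.608% of the list and 2.48 per 100 coding genes. The same chromosome had 6.31 H3K4me1 regions and 5.49 T-bet peaks per 100 coding genes, so it was low in every list. Of its 24 regions, 7 were at G530011O06Rik and 3 at Bcor, which encodes a BCL6 corepressor found in a variant Polycomb complex and is named here after its values were seen, and 14 genes had 1 each. The sex of the mice is not in the labels.

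**Figure D2:**
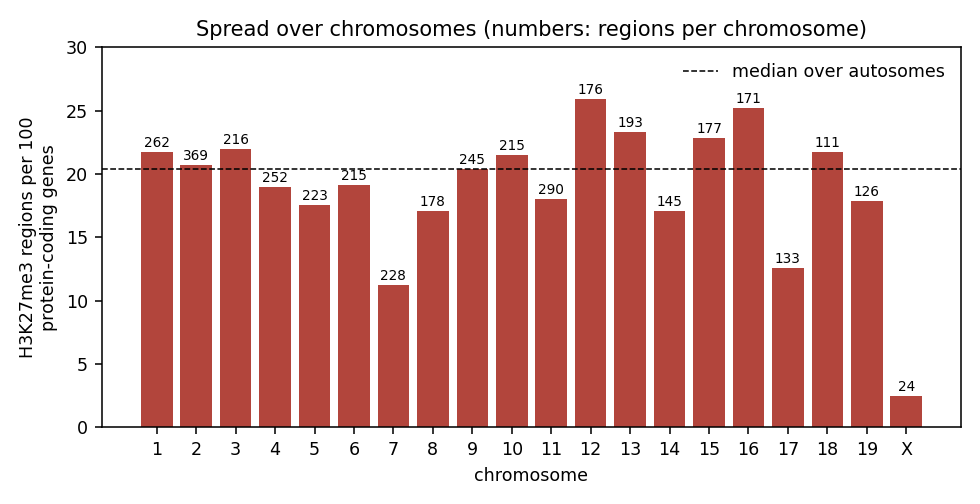
Bars give the number of H3K27me3 regions per 100 protein-coding genes for each of 20 chromosomes, with the number of regions above each bar. The dashed line is at the median over autosomes, 20.4. Autosomes range from 11.2 on chromosome 7 to 25.9 on chromosome 12, and the X chromosome is at 2.48.

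The list named 2875 closest genes. Matched to a RefSeq table, 2582 of them were protein-coding and took 3548 regions, 89.8%, while 161 long noncoding RNA genes took 234 regions, 5.93%, and 47 microRNA genes took 1.52%. The 2582 are 11.8% of the 21896 coding genes in the table, the background against which every gene list is read here. Of the named genes, 2220, 77.2%, had 1 region, 655 had 2 or more, and 44 had 5 or more. Among coding genes, 590 had 2 or more, 2.69%. The closest gene is given by the authors and need not be the gene a region acts on.

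The 10 genes with the most regions were of mixed kinds. B230120H23Rik had 19, Gm5122 and Ifngr2 had 13 each, 4933403F05Rik 12, Adam6a and Ampd3 10 each, Cdc42ep4 9, and B930092H01Rik, Pbx3 and Ralb 8 each. Pbx3 is a homeobox cofactor of Hox proteins, Ralb is a small GTPase, and Gm5122 and B930092H01Rik are long noncoding RNA genes in the RefSeq table. Of the 10, Ifngr2 and Ralb were on the authors' list of genes with higher expression in Tbx21-/- cells.

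Genes of T cell states other than Th1 held the 4 highest shares over all regions. Of 18 genes of naive and memory T cells, 10 were closest to a region, 55.6% (95% interval 30.8 to 78.5), and of 16 Th17 genes 8, 50.0% (24.7 to 75.3). Of 25 Th2 genes there were 9, 36.0% (18.0 to 57.5), and of 28 genes typical of the follicular helper and the regulatory lineage 10, 35.7% (18.6 to 55.9). Th1 genes stood at 4 of 30, 13.3% (3.76 to 30.7), near the background. The intervals are exact Clopper-Pearson intervals that treat genes as independent and cover counting error only, and the lists were chosen with earlier results of these data known. With the regions at or above the median tag count, where all coding genes stood at 6.41%, the naive and memory list stayed highest with 44.4% and Th17 next with 37.5%. Th2 genes then stood at 16.0% and the follicular and regulatory genes at 17.9%, below cytokine genes with 18.9% and chemokine genes with 18.0%. Of 34 gene lists, 22 had a share above that of all coding genes.

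**Figure D3:**
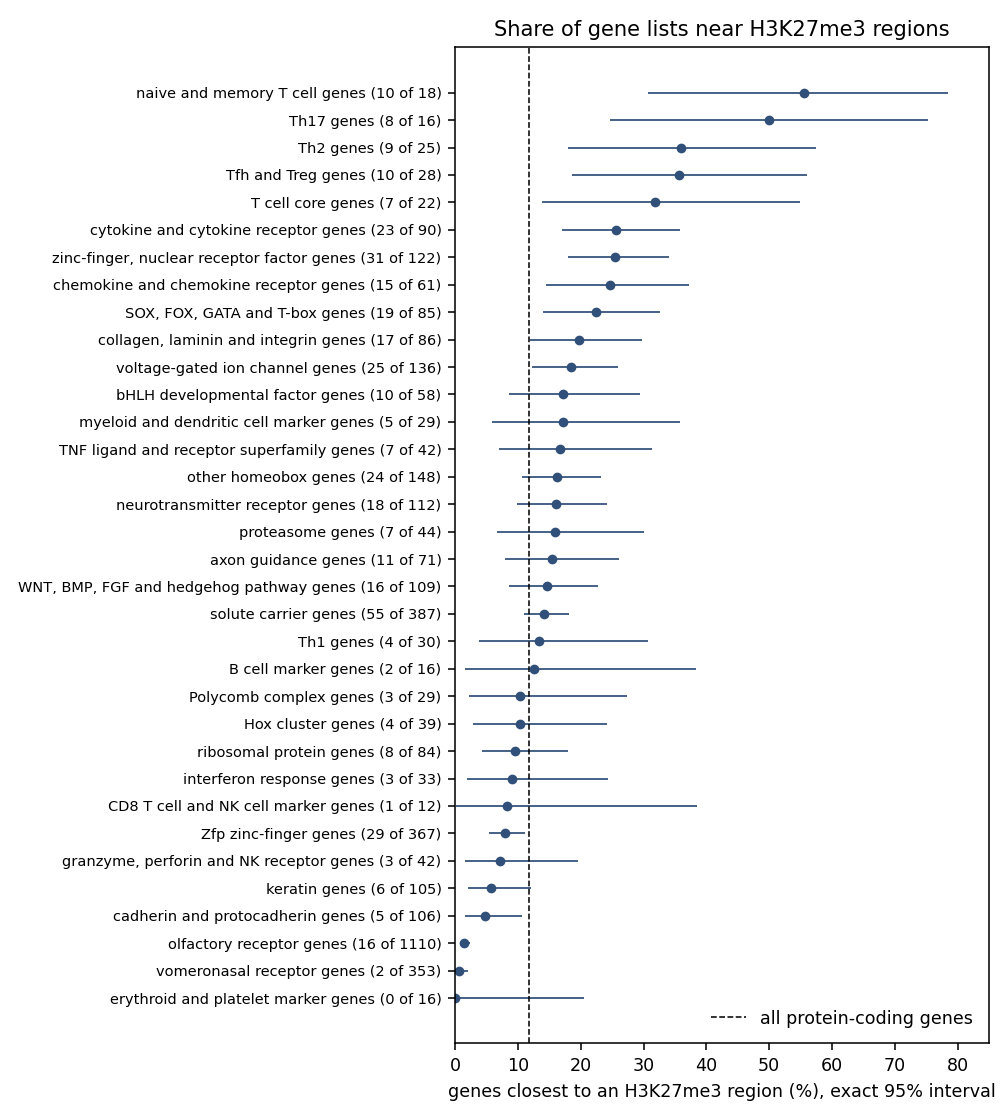
Points give, for each of 34 gene lists, the percentage of its genes that are the closest gene of an H3K27me3 region, with exact 95% intervals for counting error and the dashed line at 11.8%, the share over all coding genes. Naive and memory T cell genes are at 55.6% and Th17 genes at 50.0%, Th1 genes at 13.3%, and olfactory receptor genes at 1.44%.

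Among naive and memory genes, S1pr1, which encodes the sphingosine 1-phosphate receptor that lets T cells leave lymph nodes, had 5 regions, 1 of them overlapping a T-bet peak. The phosphatase gene Dusp10 and Tcf7 had 3 each. The Tcf7 regions held 59, 39 and 44 tags, at chr11:52072382-52073753, chr11:52111127-52111966 and chr11:52118013-52118913, all well over the list's median of 18, and the last 2 lay 1.04 and 4.49 kb from a T-bet peak. Ccr7, the lymph node homing receptor, had regions of 46 and 63 tags, the second 1928 bp long. Id3, an inhibitor of E proteins, had 2 regions of 30 and 33 tags. Foxp1 and Igfbp4 also had 2 each, and Bcl2, Klf2 and Klf3 had 1. This group therefore had both many members with a region and regions above the usual tag count.

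Several Th17 genes had more than 1 region. Ccr6 had 6 regions of 17 to 50 tags within 27.1 kb, and 1 of them, at chr17:8444767-8445383, overlapped a T-bet peak. The nearest H3K4me1 region was 58.0 to 84.0 kb away from the Ccr6 regions. Il17a had 1 region of 54 tags and 1535 bp, and its neighbour Il17f had 3 of 17, 45 and 40 tags. Il1r1, the IL-1 receptor chain that Th17 cells use, had 5 of 20 to 30 tags, and Maf, a factor shared by Th17, Th2 and follicular cells, had 5 of 14 to 38 tags spread over a wide stretch. Ahr and Stat3 had 1 each. Of the 16 Th17 genes 37.5% were closest to an H3K4me1 region, against 17.2% of all coding genes.

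At Th2 genes the tag counts were mostly low. Gata3, the Th2 lineage factor, had 3 regions with 14, 15 and 13 tags, all below the median of the list. Il4 had 1 with 25 tags at chr11:53437697-53438480, and the other signature cytokine genes of the lineage, Il5 and Il13, had none. The chemokine receptor gene Ccr4 had 2 of 15 and 14 tags, and Ccr8, Cyp11a1, Il4ra, Nfil3 and Pparg had 1 each. Among follicular and regulatory genes, Lrrc32, which presents latent TGF-beta, Nrp1 and Tox2 had 4 regions each, and the Tox2 regions held 61, 122, 52 and 35 tags. Icos, Itgae and Pou2af1 had 2, and Bcl6, Ebi3, Entpd1 and Gpr83 had 1, with 40 tags at Bcl6. Foxp3, on which regulatory T cells depend, had none.

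The leading Th1 genes had no listed region. Tbx21, Ifng, Cxcr3, Il12rb2, Hlx and Stat4 had none, whereas Ifng was the closest gene of 35 H3K4me1 regions and 9 T-bet peaks. The 4 members with a region were Prdm1 with 3 and Eomes, Id2 and Runx3 with 1. The Eomes region was large, 1377 bp with 69 tags, at chr9:118395221-118396597. Eomes encodes the T-box factor related to T-bet that acts in CD8 T cells and NK cells. The Runx3 region had 24 tags and overlapped an H3K4me1 region. Of the Th1 list, 73.3% were closest to an H3K4me1 region and 76.7% to a T-bet peak. Over all coding genes these shares were 17.2% and 10.4%. The other T cell lists were above these shares too. In the same order, naive and memory genes stood at 61.1% and 61.1%, and follicular and regulatory genes at 57.1% and 46.4%. T cell core genes stood at 45.5% and 59.1%, Th2 genes at 48.0% and 40.0%, and Th17 genes at 37.5% and 56.25%.

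**Figure D4:**
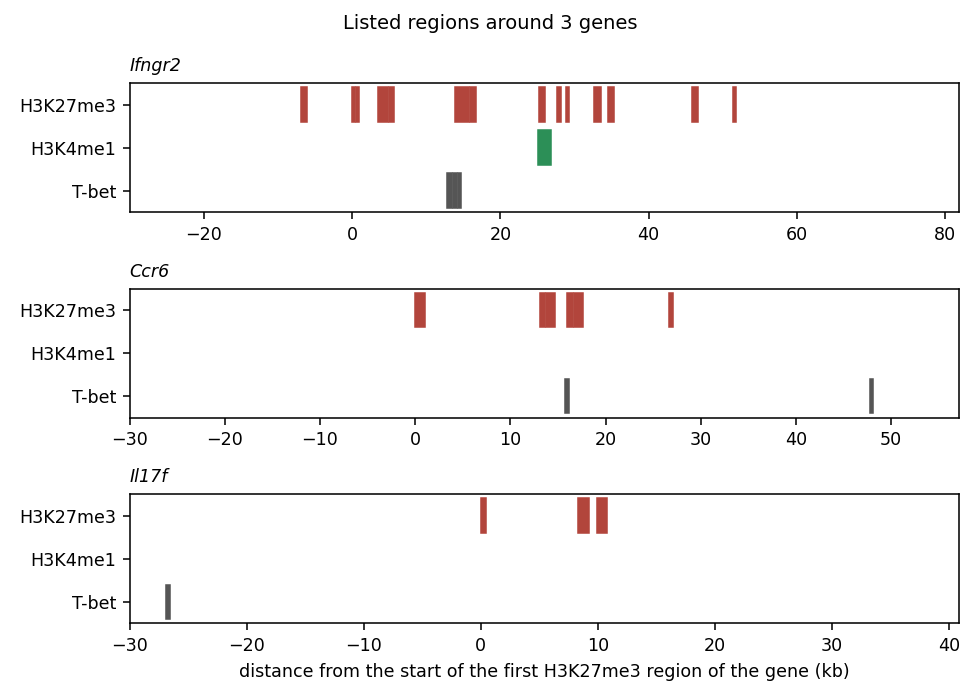
Maps of 3 loci, each within 30 kb of the first and last H3K27me3 region of the gene, with distance from the first region in kb on the x axis and 1 row per list. The window at Ifngr2 holds 14 H3K27me3 regions, 1 H3K4me1 region and 3 T-bet peaks, and those at Ccr6 and Il17f hold 6 and 3 H3K27me3 regions and no H3K4me1 region.

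Signalling genes lay between these groups and the background. Of 90 cytokine and cytokine receptor genes 23 had a region, 25.6% (16.9 to 35.8), led by Ifngr2 with 13. The Ifngr2 regions ran from chr16:91520435 to 91572233, with 14 to 94 tags and folds of 3.86 to 13.3. The region with the most tags, at chr16:91534320-91536236, overlapped T-bet peaks of 23 and 49 tags. Another, at chr16:91545668-91546410, overlapped an H3K4me1 region. The neighbouring receptor genes Ifnar1 and Ifnar2 had 1 and 2 regions. Lif, a cytokine of the IL-6 family, and its receptor gene Lifr had 5 each. Of 61 chemokine and chemokine receptor genes 15 had a region, 24.6%, with Ccr4, Ccr7 and Cxcr4 at 2 behind Ccr6. T cell core genes stood at 7 of 22, 31.8%, with Bcl11b and Runx1 at 3 and Ets1 at 2, all factors of T cell development. With the regions at or above the median tag count, T cell core genes stood at 2 of 22, 9.09%.

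Developmental regulators, the textbook targets of Polycomb, varied by family, and the intervals of several families held the background of 11.8%. SOX, FOX, GATA and T-box genes stood at 19 of 85, 22.4%, with Foxl1 at 6, and zinc-finger and nuclear receptor factors at 31 of 122, 25.4%, or 10.7% with the regions at or above the median tag count. Other homeobox genes stood at 24 of 148, 16.2% (10.7 to 23.2), with Pbx3 at 8, Pou3f1 and Zeb2 at 3 and Tshz2 at 2. Basic helix-loop-helix genes stood at 10 of 58, 17.2% (8.59 to 29.4), and both intervals held the background. The Hox clusters stood at 4 of 39, 10.3% (2.87 to 24.2). Hox genes define body axes and are heavily marked by H3K27me3 in many cell types. Their interval holds the background, so these counts do not place them above or below it. A gene without a listed region is not thereby shown to lack the mark. With the regions at or above the median tag count the Hox genes stood at 3 of 39, 7.69%, near the matching 6.41%. Signalling genes of the WNT, BMP and FGF families stood at 16 of 109, 14.7% (8.63 to 22.7), an interval that held the background. With the higher tag counts they stood at 3.67%, below the matching 6.41%. Axon guidance genes stood at 11 of 71, 15.5%, and collagen, laminin and integrin genes at 17 of 86, 19.8%.

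Genes of other tissues varied by family. Ion channel genes stood at 25 of 136, 18.4% (12.3 to 25.9), led by the sodium channel gene Scn8a with 7 regions. Neurotransmitter receptor genes stood at 18 of 112, 16.1% (9.81 to 24.2), and solute carriers at 55 of 387, 14.2% (10.9 to 18.1). The last pair of intervals held the background. Keratin genes stood at 5.71%, cadherin genes at 4.72%, zinc-finger genes named Zfp at 7.90%, olfactory receptor genes at 16 of 1110, 1.44%, and vomeronasal receptor genes at 2 of 353, 0.567%. The receptor genes of smell had the lowest shares above 0 among the 34 lists. Without both receptor families the background is 12.5%. Of other blood cell lists, myeloid and dendritic genes stood at 5 of 29, 17.2%, with 4 regions at Spi1, the gene of PU.1, and 3 at Batf3. B cell genes stood at 2 of 16, 12.5%, and had none with the higher tag counts. CD8 and NK genes stood at 1 of 12, 8.33%, granzyme, perforin and NK receptor genes at 3 of 42, 7.14%, and erythroid genes at 0 of 16, with an upper bound of 20.6%. TNF family genes stood at 16.7%, interferon response genes at 9.09% and genes of the Polycomb complexes at 10.3%. Among lists of housekeeping genes, proteasome genes stood at 15.9% and ribosomal protein genes at 9.52%.

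A larger share of genes with higher expression in Tbx21-/- cells than of genes with lower expression was closest to an H3K27me3 region. The authors' deposited table lists 211 matched genes with lower and 206 with higher expression in Tbx21-/- cells. These shares are descriptions, and no test of the difference was run. Among the higher ones, which the authors call negatively regulated by T-bet, 68 had a region, 33.0% (26.6 to 39.9), and 33 had 2 or more, 16.0%. Among the lower ones, called positively regulated, 34 had a region, 16.1% (11.4 to 21.8), and 13 had 2 or more, 6.16%. All other coding genes stood at 11.5%. Counted as regions, there were 77.7 per 100 negatively regulated genes and 26.1 per 100 positively regulated genes. The regions at negatively regulated genes were also larger, with a median of 23 tags against 16. In bulk RNA, fewer cells of a type and less RNA per cell cannot be told apart.

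H3K4me1 ran the other way. Of the positively regulated genes 148, 70.1%, were closest to an H3K4me1 region, and of the negatively regulated genes 49, 23.8%. Of the 68 negatively regulated genes with H3K27me3 regions, 48 had no H3K4me1 region and 20 had both. Of the 34 positively regulated ones, 30 had both and 4 had H3K27me3 alone. Of the 177 positively regulated genes without an H3K27me3 region, 118 were closest to an H3K4me1 region, so most genes of this class had one either way. Having both means the same closest gene and not that the regions overlap or lie near each other. The share was higher among genes closest to a T-bet peak in each class. The share was 57.8% of 45 bound and 26.1% of 161 unbound negatively regulated genes, and 23.2% and 10.3% of positively regulated genes. Over other coding genes it was 25.6% and 10.0%, so the same contrast appeared among genes on neither expression list. The length of the stretch for which each gene is the closest was not analysed here.

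The size of the expression difference was much alike with and without a region. Taken from the authors' deposited table as Tbx21-/- over wild type, the log2 ratio had a median of 1.49 over negatively regulated genes with a region and 1.38 over those without. Over positively regulated genes the medians were -1.57 and -1.59. The median wild type level by the authors' deposited table was 4.63 FPKM for negatively regulated genes with a region and 5.37 FPKM for those without. For positively regulated genes the authors' deposited table gave medians of 13.8 and 19.9 FPKM in wild type cells. In Tbx21-/- cells the medians from the authors' deposited table were 13.7 and 16.5 FPKM for negatively and 3.92 and 5.39 FPKM for positively regulated genes.

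**Figure D5:**
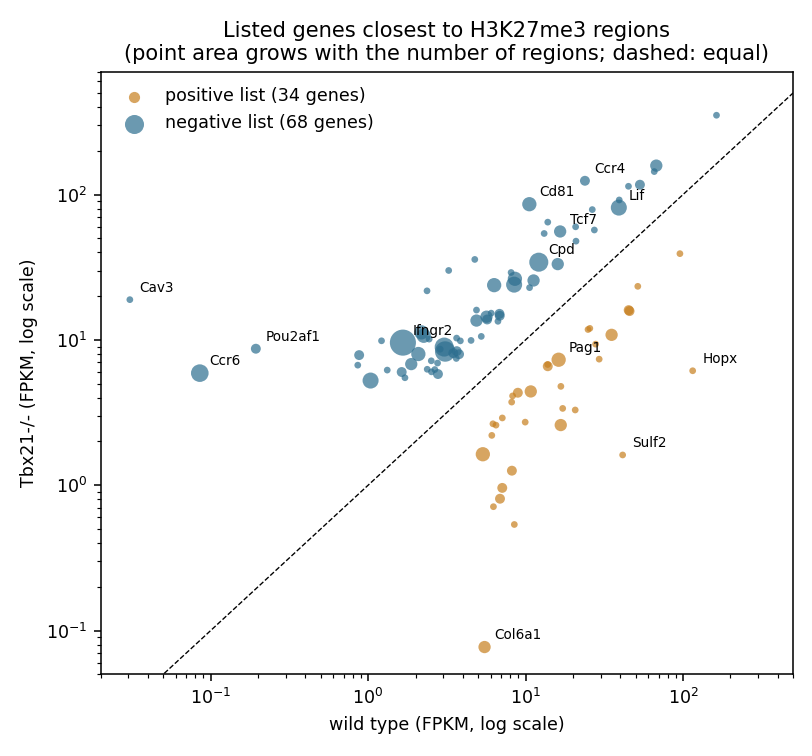
Each point is 1 of 68 negatively and 34 positively regulated genes closest to an H3K27me3 region, with FPKM in wild type on the x axis and in Tbx21-/- cells on the y axis, both on log scales, from the authors' deposited table. The largest points, Ifngr2 and Ccr6 among them, are negatively regulated genes, and Ifngr2 is at 1.66 FPKM on the x axis and 9.57 FPKM on the y axis.

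The negatively regulated genes with the most regions were of mixed kinds. Each pair of FPKM values gives wild type first and Tbx21-/- second. In the authors' deposited table Ifngr2, with 13 regions, stood at 1.66 and 9.57 FPKM, Ccr6, with 6, at 0.0853 and 5.90 FPKM, and Ralb, with 8, at 3.09 and 8.32 FPKM. Ccr6 was thus close to 0 in wild type cells, and the other 2 were expressed at low levels. The authors' deposited table gives Mgll, the monoacylglycerol lipase, 8.46 and 24.0 FPKM and the carboxypeptidase gene Cpd 12.1 and 34.2 FPKM. The authors' deposited table gives Azin2, an antizyme inhibitor listed as Adc, 1.04 and 5.25 FPKM, and the cytokine gene Lif 39.1 and 81.3 FPKM. Lif, with 5 regions, was thus well expressed in wild type cells. The list does not give in which genotype its regions were marked. The tetraspanin gene Cd81 and Tox2, each with 4 regions, stood in the authors' deposited table at 10.6 and 85.8 FPKM and at 2.18 and 11.3 FPKM. Members of the T cell lists were among the negatively regulated genes too. The authors' deposited table gives Tcf7 16.6 and 55.7 FPKM, Ccr4 23.8 and 124 FPKM, Il4 2.44 and 10.1 FPKM, and Pparg 4.76 and 35.8 FPKM. Il17a was on neither expression list.

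Positively regulated genes had at most 4 regions. Lrig1, which restrains receptors of the EGF family, and Pag1, a membrane adaptor that recruits the kinase CSK, had 4 each and stood at 5.35 and 1.63 FPKM and at 16.2 and 7.30 FPKM in the authors' deposited table. Col6a1, a collagen VI chain, Prag1, a pseudokinase, the ETS factor Etv5 and the PI3K adaptor Pik3ap1 had 3 each, and Sema6d, Mctp2, Prss35 and Dyrk2 had 2. By the authors' deposited table Col6a1 stood at 5.49 and 0.0770 FPKM, and Etv5 at 35.2 and 10.8 FPKM. Dyrk2, a kinase gene with 25 H3K4me1 regions beside its 2 H3K27me3 regions, stood at 45.2 and 16.0 FPKM in the authors' deposited table. In this class genes with H3K27me3 regions thus include some with many regions of the other mark.

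On the genome the H3K27me3 regions seldom met either other list. With 1 bp of overlap, 51 regions, 1.29%, met an H3K4me1 region, and 50 of the H3K4me1 regions, 0.652%, met one of them. With T-bet peaks, 15 regions, 0.380%, and 16 peaks, 0.496%, overlapped. The 15 regions were closest to Ifngr2, Ccr6, S1pr1, Spry1, Lpp, Atm, D2hgdh, 3830408C21Rik, Fam105a, Vmn1r2, Fam76a, Trpm1, Cib1 and Sfpi1, the older name of Spi1, with 2 at Sfpi1. The median distance to the nearest T-bet peak was 142 kb and to the nearest H3K4me1 region 72.9 kb. Within 5 kb there were 355 regions, 8.99%, with an H3K4me1 region and 210, 5.32%, with a T-bet peak, and within 20 kb 900, 22.8%, and 607, 15.4%. A closest gene stands for a much wider stretch than a region, so shared genes are not on the same scale as overlaps. Of the 2582 genes 968 were also closest to an H3K4me1 region, 37.5% of them and 25.7% of the 3764 H3K4me1 genes, and 594 to a T-bet peak, 23.0% of them and 26.2% of the 2271 T-bet genes. Over all coding genes the shares were 17.2% for H3K4me1, 10.4% for T-bet and 11.8% for H3K27me3.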

How the data were processed

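H3K27me3, H3K4me1, T-bet and expression lists came as the authors' deposited tables. Build mm9 is named in the submitters' processing notes, beside MACS 1.4.1, DESeq, TopHat 1.3.3, Bowtie 0.12.7 and CASAVA 1.7, with no roles. The deposited region lists give tag counts and fold enrichment, a ratio, per region as the authors' peak caller set them; the deposited T-bet list also gives a false discovery rate in percent. Against which control the histone regions were called is not given in the sources at hand. The authors' FPKM values merge the duplicate RNA libraries. The deposited log2 ratio sets Tbx21-/- over wild type. Depth is unknown.

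Genes were matched by symbol or unique synonym to 21896 RefSeq coding genes (GRCm38.p6, names only): 2582 of 2875 H3K27me3 genes, 211 of 219 positive and 206 of 211 negative genes. Gene names garbled into dates, at 6 regions, were left unmatched. Clusters join regions at most 10 kb apart. Members and lists were chosen with earlier results of these data known; the homeobox list was corrected after the files were read, since it had taken in Pou2af1. Named genes are the 10 with the most regions, those of the 10 regions with the highest tags and fold and the 5 longest, the 5 largest clusters, 10 genes per expression list, up to 10 members per gene list and 16 fixed genes; others were chosen after their values were seen. SciPy 1.17.1, matplotlib 3.10.9, NumPy 2.4.6 and pandas 2.3.3 under Python 3.11.15 were used, the scripts were tested on simulated data, and no test between genotypes was run. Results for some genes under the naming rule are not reported here.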

Additional observations from a re-analysis of the deposited data

How the results depend on the processing

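Results were recomputed with regions at or above the median tag count (2103 regions), at or above the median length (1979 regions), with other distances and with genes matched by listed name. The share of regions in clusters moved from 19.6% to 13.5% at 5 kb, 27.8% at 20 kb, 23.7% with the higher tags and 22.6% with the longer regions. Fewer regions name fewer genes by construction: the share of coding genes moved from 11.8% to 6.41% and 6.07%, of positively regulated genes from 16.1% to 8.06% and 7.58%, and of negatively regulated genes from 33.0% to 22.8% and 22.3%. The negative share was 2.05 times the positive one, and 2.83 and 2.94 times with those restrictions. The median length went from 509 to 687 bp with the higher tags. Overlap within 5 kb moved the H3K4me1 share from 1.29% to 8.99% and the T-bet share from 0.380% to 5.32%. With the higher tags, the lists that went from above to below the share of all coding genes were the WNT, BMP and FGF genes, with 3.67%, and the B cell genes, with 0. Those that went from below to above it were the CD8 and NK genes with 1 of 12, 8.33%, the Hox genes with 3 of 39, 7.69%, and the ribosomal protein genes with 6 of 84, 7.14%. These shares rest on few genes and lie near 6.41%. For the CD8 and NK genes the count was 1 of 12 in both settings, and only the share of all coding genes fell.

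No paired analysis was possible because the RNA replicates are combined in the deposited values and the H3K27me3 list rests on 1 library per genotype. The list is of regions only, so depth, the level of the mark per genotype and regions below the caller's threshold cannot be given.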

Other observations

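Other groups of regions are given here as values chosen after they were seen. Adam6a, which lies in the immunoglobulin heavy chain locus, had 10 regions over 804 kb at chr12:114754922-115558496, with 11 to 19 tags each. Ribosomal protein genes had 18 regions at 8 genes, with 4 at Rps24, of 15 to 30 tags, and 3 each at Rpl11 and Rplp1, and the regions at Rpl11 held 20, 18 and 44 tags. Mir101c, near the start of chromosome 9, had 1 region of 62 tags at chr9:3018658-3019597 and was the closest gene of 8 T-bet peaks.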
